A study of Mus musculus with 8 samples.

Results

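The comparison concerned the expression difference between Bmp2 knock-out and floxed mouse dental papilla cells, at 6 h of culture against 48 and 72 h. The knock-out effect of a gene was its log2 CPM (counts scaled to the library total) in the iBmp2ko/ko cells minus that in the iBmp2fx/fx cells at the same culture time. The early minus late difference was the effect at 6 h minus the mean of the effects at 48 and 72 h, so that a positive value means a more positive knock-out effect at 6 h. The members were chosen by genotype and culture time only. They were 6 of the 8 RNA-seq libraries of the study, and 13121 of 22609 gene symbols passed the filter on low counts.

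The iBmp2fx/fx cells are an immortalized line of mouse dental papilla mesenchyme in which both alleles of Bmp2 are floxed. The iBmp2ko/ko cells are the corresponding immortalized line with both alleles deleted. Each genotype was 1 cell line, sequenced once at 6, 48 and 72 h after culture to near confluence, with no further treatment given in the sources for these libraries. There was therefore 1 library per genotype and time, and the 24 h pair was left out. With 1 line per genotype, the loss of Bmp2 cannot be told apart from any other difference between the lines. The error of every difference came from how far the knock-out effects at 48 and 72 h lay apart in the same gene, moderated across genes, so it measures the spread between these libraries and not between separate cultures at 6 h.

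BMP2 is a secreted growth factor of the TGF-beta superfamily. It signals through type I and type II serine/threonine kinase receptors, which phosphorylate Smad1, Smad5 and Smad9, and these enter the nucleus with Smad4 and induce target genes such as the Id genes and the inhibitory Smads. In the tooth, BMP2 from the dental mesenchyme takes part in odontoblast differentiation and dentin formation.

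Between 25890110 and 32415665 reads were counted on genes in the 6 libraries, and 3 counts corresponded to 0.0925 to 0.116 CPM. Bmp2 itself had 0 counts in 7 of all 8 libraries and 1 count in the floxed 24 h library, so it did not check the genotype labels at this depth. Mesenchyme markers were high in every library, with a summed level of 9861 to 15860 CPM over 10 genes. Epithelial, endothelial and red blood cell markers summed to at most 3.65 CPM in any library, skeletal muscle markers to 4.10 to 15 CPM, immune cell markers to 26 to 45.7 CPM, of which Cd14 made up most, and glial and neuronal markers to 21.3 to 59.4 CPM, of which Tubb3 made up most. Among them, 1 of 9 epithelial, 2 of 7 endothelial and 4 of 6 red blood cell markers had 0 counts throughout. In the 24 h pair, the knock-out effects had a correlation across genes of 0.016 with those at 6 h, 0.015 with those at 48 h and -0.033 with those at 72 h. In that pair the BMP target genes Id1, Id2 and Id3 had knock-out effects of 0.06, 0.26 and 0.47. The genotype labels of the 24 h pair were therefore in doubt, and every value given with that pair depends on them.

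No gene passed the adjusted limit, which was an adjusted p of at most 0.05 with a difference of at least 1 on the log2 scale, by edgeR's quasi-likelihood F test adjusted over all genes after Benjamini and Hochberg (0 of 13121 genes, 0%). The smallest adjusted p in that edgeR fit was 0.108, for Msln and Oas3. An unadjusted p under 0.05 at any size of difference was found for 912 genes, or 6.95%. DESeq2 called 26 genes at the adjusted limit with the same design, and limma on log2 CPM called 0. At the limit of the study's methods, an unadjusted p under 0.05 with a difference above 1, 367 genes passed (2.8%). Of these, 151 (1.15%) were higher at 6 h and 216 (1.65%) were lower. The count was 238 with DESeq2, 181 with the 24 h pair among the later times and 70 without the culture time term in the model, and it ran from 24 to 206 when a later library was left out. This is called the unadjusted limit here, and all counts and values that follow for genes past it are without correction for multiple tests.

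Over all genes tested, the knock-out effects at 6 h lay about as far from those at each later time as the later times lay from each other. Across the 13121 genes, the effects had a Pearson correlation of 0.750 between 6 and 48 h, 0.752 between 6 and 72 h and 0.766 between 48 and 72 h. These are correlations across genes, which are not independent replicates. The SD of the difference was 0.566 between 6 and 48 h, 0.537 between 6 and 72 h and 0.530 between 48 and 72 h. A difference of at least 1 was seen in 983 genes between 6 and 48 h, in 858 between 6 and 72 h and in 827 between 48 and 72 h. Among the 10958 genes with a mean of at least 100 counts, these numbers were 483, 338 and 317. The SDs there were 0.478, 0.426 and 0.411 in the same order. The effect itself was at least 1 in size in 1664 genes at 6 h (693 up, 971 down), in 1491 genes at 48 h and in 1281 genes at 72 h.

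**Figure D1:**
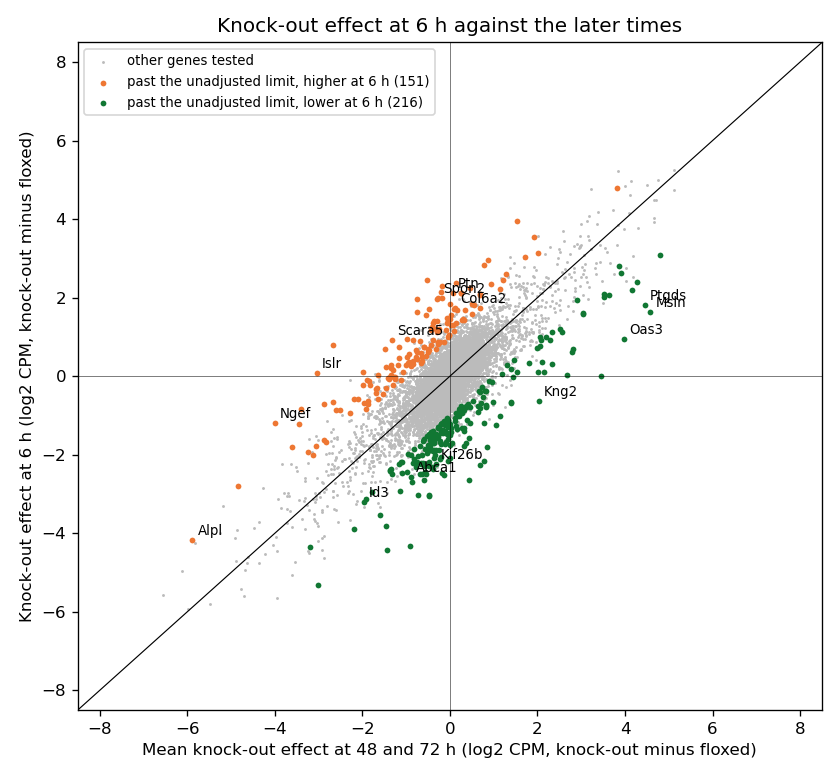
Knock-out effect at 6 h (vertical axis) against the mean effect at 48 and 72 h (horizontal axis), in log2 CPM, for the 13121 genes tested (1 point per gene, 1 library per genotype and time). The line marks equal effects, and the 151 genes past the unadjusted limit that were higher at 6 h and the 216 that were lower lie on its opposite sides.

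Among the 367 genes, 139 had a knock-out effect of at least 1 in size at 6 h and of less than 1 at both later times, a pattern that 584 (4.45%) of all genes tested had. Another 61 had such an effect at 48 and 72 h but not at 6 h, against 193 (1.47%) of all genes tested. In 43 it was in the same direction at all 3 times, against 625 (4.76%). The effect was under 1 at all times in 44 of the 367, and the other 80 had another pattern. These patterns use the same effects as the limit, so the shares are a description. No gene had an effect of at least 1 at 6 h and of at least 1 in the opposite direction at both later times. Of the 216 lower genes, 161 differed more between 6 h and later in the knock-out cells, where the median was -1.49, against -0.0011 in the floxed cells. Of the 151 higher genes, 97 differed more in the knock-out cells, with medians of 1.07 and -0.40. Over all genes tested, 8346 of 13121 differed more in the knock-out cells, a share near that of the 151.

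The difference moved with the length of the transcript. Across 10713 genes with a protein-coding transcript in the annotation, Spearman's rho between the difference and the length was -0.439, and with GC content it was 0.410. The genes were split by length into 5 bins of near equal size. In the shortest bin (median 1321 bases), the median knock-out effects at 6, 48 and 72 h were 0.25, 0.02 and 0.12. In the longest bin (median 6437 bases), it was -0.34, 0.03 and -0.18. The genes past the limit that were lower at 6 h numbered 8 in the shortest bin and 73 in the longest. Those that were higher numbered 28 and 18. With offsets that remove each library's trend with length and GC content, 291 genes passed the unadjusted limit (120 higher, 171 lower), and 242 of these were among the 367. The share of alignments that were not unique was 48.4% in the knock-out and 42.9% in the floxed library at 6 h, 42.7% and 41.3% at 48 h, and 49.6% and 45.6% at 72 h. The part of these features in the results was not tested. Values with these offsets are given below as values with the offsets.

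**Figure D2:**
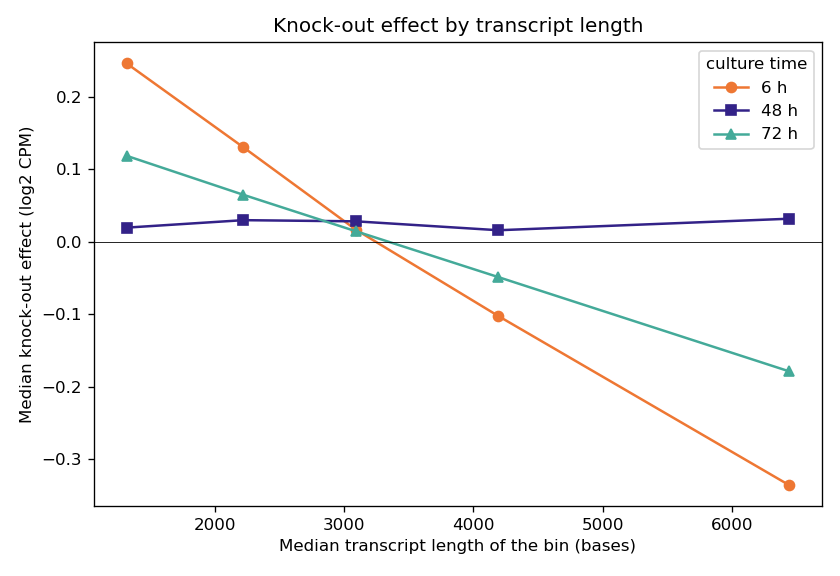
Median knock-out effect (log2 CPM) in 5 bins of the genes by transcript length, plotted at the median length of each bin in bases, with 1 line per culture time. The 6 h line runs from 0.25 in the shortest bin to -0.34 in the longest, the 72 h line from 0.12 to -0.18, and the 48 h line stays between 0.02 and 0.03.

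The 24 leading genes were the 12 higher and the 12 lower with the smallest p among 132 genes past the unadjusted limit, with at least 100 counts on average and a difference of at least 1 from each later time. The adjusted p of the 24 in the edgeR fit ran from 0.108 to 0.347. All 24 also passed the unadjusted limit with the offsets for length and GC content. Among the 12 lower genes were Msln, 3 interferon-induced genes, C4b, Kng2, Abca1, Adamtsl3, Ptgds, Ammecr1, Kif26b and Tnks. Among the 12 higher genes were Scara5, Ngef, Col6a2, Spon2, Lxn, Islr, Aqp1, Kazald1, Ptn, Cdsn, Plat and Rgs2.

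Msln encodes mesothelin, a surface glycoprotein known from mesothelium (chromosome 17, 25885559 to 25891272, minus strand, mm9). Its level in the floxed cells at 6, 48 and 72 h was 28.4, 2.45 and 2.67 CPM. In the knock-out cells it was 88.7, 75.1 and 52.4 CPM. The knock-out library was higher at each time, and the floxed level at 6 h stood apart from the later floxed levels. The knock-out effect was 1.64, 4.90 and 4.26 in the same order, a difference of -2.97 ± 0.32 (SE).

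Ptgds, which encodes a prostaglandin D synthase, had the same shape at a lower level. It was at 2.38, 0.184 and 0.0330 CPM in the floxed cells at 6, 48 and 72 h, and at 8.54, 7.69 and 1.47 CPM in the knock-out cells. The difference was -3.51 ± 0.59, and it rested on 6 counts in the floxed library at 48 h and 1 count at 72 h, so its size depends on the prior count. Without the knock-out 48 h library it was -1.85.

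Abca1, the transporter that exports cellular cholesterol, differed in the knock-out cells instead. Its level was 67.1, 76.9 and 51.1 CPM in the floxed cells at 6, 48 and 72 h. In the knock-out cells it was 11.2, 45 and 25.5 CPM. The knock-out library was the lower one at each time, and most so at 6 h, with effects of -2.57, -0.77 and -1.0 and a difference of -1.69 ± 0.25. Adamtsl3, a secreted ADAMTS-like matrix protein, had effects of -2.45, -1.10 and -0.86. Tnks, the poly(ADP-ribose) polymerase tankyrase, had -1.91, -0.08 and -0.63. Kif26b, a kinesin family member, had -2.24, -0.64 and -0.01, and Ammecr1 had -2.11, 0.05 and -0.50. These 5 transcripts were long, from 5437 bases in Ammecr1 to 10262 bases in Abca1, and with the offsets their differences were -1.27 for Abca1, -1.17 for Adamtsl3, -1.31 for Tnks, -1.79 for Kif26b and -1.58 for Ammecr1.

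A pair of genes for plasma proteins had knock-out effects of opposite sign. C4b, complement component C4, was at 43.6 CPM in the floxed and 25.5 CPM in the knock-out cells at 6 h. At 48 h it was at 178 and 320 CPM, and at 72 h at 48.7 and 84.2 CPM. The effect was -0.77 at 6 h, 0.85 at 48 h and 0.79 at 72 h, a difference of -1.59 ± 0.22. That difference was -0.35, under the limit, without the knock-out 48 h library, and -0.95 without the floxed 72 h library. Kng2, a kininogen, was at 2.82 and 1.8 CPM at 6 h, at 6.85 and 28.4 CPM at 48 h and at 1.58 and 6.67 CPM at 72 h. Its effects of -0.63, 2.04 and 2.03 gave a difference of -2.70 ± 0.40, which was -1.30 without the knock-out 48 h library. C4b and Kng2 each have a close relative in the mouse genome, C4a and Kng1, with which reads can be shared, so their levels are uncertain.

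**Figure D3:**
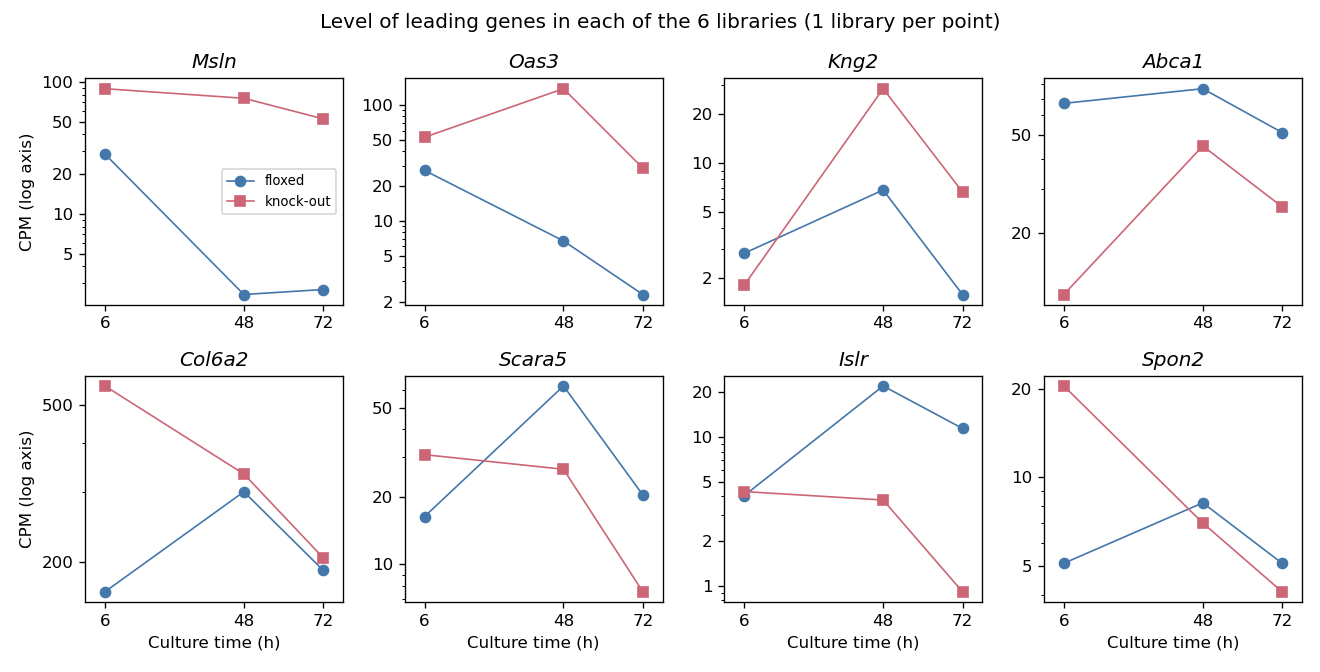
Level of 8 of the leading genes in CPM (log axis, each panel with its own range) against culture time in h, with 1 library per point, floxed cells as circles and knock-out cells as squares. Msln and Oas3 are highest at 6 h in the floxed cells, Abca1 and Kng2 are lowest at 6 h in the knock-out cells, and Col6a2 and Spon2 are highest at 6 h in the knock-out cells.

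Among the higher genes, Scara5, a receptor for ferritin, was at 16.3 CPM in the floxed and 30.8 CPM in the knock-out cells at 6 h. At 48 h it was at 62.5 and 26.5 CPM, and at 72 h at 20.4 and 7.54 CPM. The knock-out library was the higher one at 6 h and the lower one at both later times. The effects were 0.91, -1.23 and -1.43, a difference of 2.24 ± 0.28, and of 1.17 without the floxed 48 h library. Islr, a mesenchymal protein with leucine-rich repeats and an immunoglobulin domain, was at 4.04 and 4.30 CPM at 6 h, at 22.1 and 3.78 CPM at 48 h and at 11.4 and 0.913 CPM at 72 h. Its difference was 3.08 ± 0.50, the largest positive one of the 24, with near equal levels at 6 h and a lower knock-out level later.

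A lower knock-out level at both later times and a smaller difference at 6 h was also seen in 5 further genes. Ngef, a guanine nucleotide exchange factor, had effects of -1.18 at 6 h, -3.89 at 48 h and -4.09 at 72 h. Aqp1, a water channel, had -0.13, -1.56 and -2.12, and Lxn, a carboxypeptidase inhibitor, had -0.31, -1.73 and -1.61. Kazald1, a secreted protein with a Kazal domain, had -0.86, -2.39 and -2.62, and Cdsn, corneodesmosin, had -0.22, -1.72 and -1.91. Their early minus late differences ran from 1.37 for Lxn to 2.88 for Ngef, and that of Cdsn went from 1.60 to 0.90 without the floxed 48 h library.

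Spon2, Ptn and Rgs2 were high in the knock-out cells at 6 h. Spon2, a secreted matrix protein, was at 5.11 CPM in the floxed and 20.5 CPM in the knock-out cells at 6 h, at 8.20 and 7.0 CPM at 48 h and at 5.11 and 4.09 CPM at 72 h. Its effects of 1.99, -0.23 and -0.32 gave a difference of 2.27 ± 0.36. Ptn, the heparin-binding growth factor pleiotrophin, was at 12.3 and 53.5 CPM at 6 h, at 19.7 and 26.2 CPM at 48 h and at 8.17 and 6.79 CPM at 72 h. Its difference of 2.02 ± 0.35 was 1.11 without the floxed 48 h and 1.23 without the knock-out 72 h library. Rgs2, a regulator of G protein signalling, was at 2.10 and 8.44 CPM, 4.53 and 3.61 CPM, and 4.84 and 2.10 CPM. In all 3 genes the knock-out library at 6 h had the highest level of the 6 libraries. Plat, tissue plasminogen activator, had smaller effects of 0.43 at 6 h, -0.72 at 48 h and -0.80 at 72 h, a difference of 1.19 ± 0.22.

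**Figure D4:**
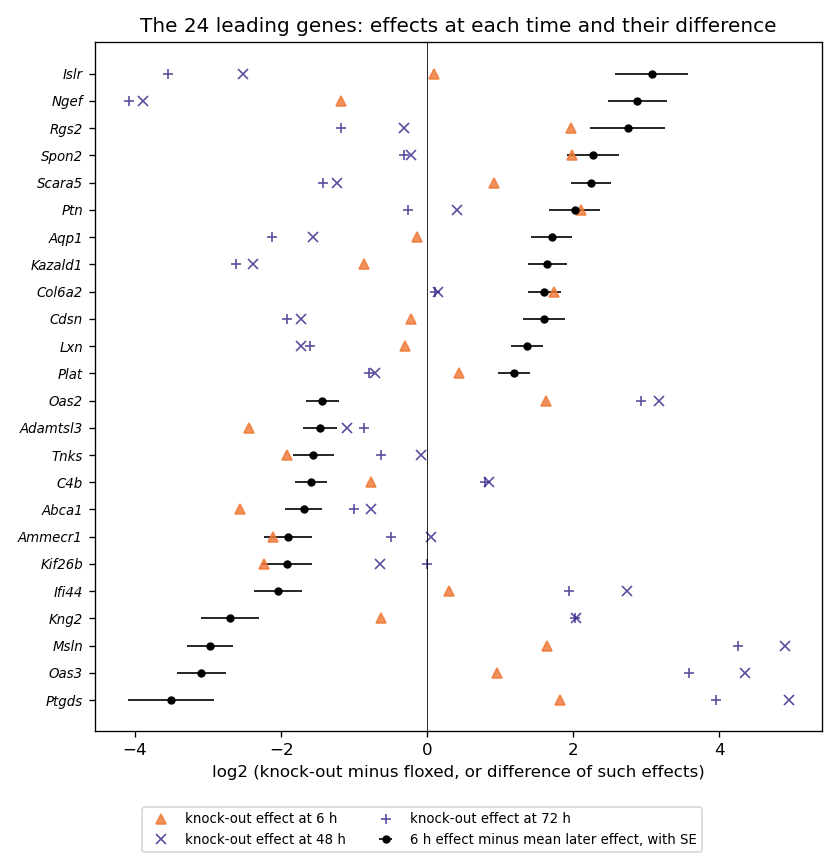
Knock-out effect at 6, 48 and 72 h (triangles, crosses and plus signs) and the early minus late difference with its SE (black circles with bars) for the 24 leading genes, on the log2 scale. The differences run from -3.51 for Ptgds to 3.08 for Islr, and the 2 later effects lie on the same side of the 6 h effect in each gene.

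The type VI collagen genes Col6a1, Col6a2 and Col6a3 had a higher knock-out effect at 6 h than later. Their products form the beaded microfibrils around mesenchymal cells. Col6a2 (chromosome 10, 76058507 to 76086375, minus strand, mm9) was at 168 CPM in the floxed and 558 CPM in the knock-out cells at 6 h. At 48 h it was at 301 and 334 CPM, and at 72 h at 190 and 205 CPM. The knock-out library at 6 h was above the other 5. The effects of 1.73, 0.15 and 0.11 gave a difference of 1.61 ± 0.23. Its neighbour Col6a1 was at 520 and 1336 CPM at 6 h, at 798 and 927 CPM at 48 h and at 507 and 531 CPM at 72 h, a difference of 1.22 ± 0.26. Col6a3 had effects of 0.79, -0.88 and 0.03 and a difference of 1.22 ± 0.36, which was 0.75 and under the limit without the knock-out 48 h library. These were 3 of 27 collagens and matrix proteins tested past the unadjusted limit, with none lower, against 1.15% higher and 1.65% lower of all genes, and the same 3 counted with the offsets. No gene of the list passed without either later floxed library or without the culture time term. The median difference of the list was 0.48 (0.30 with the offsets), against -0.01 over all genes tested. When a later library was left out, the list median ran from 0.13 to 0.34. Thbs1, which encodes thrombospondin, went the other way within the list, with effects of -2.0, -1.19 and -1.02, and its difference of -0.89 was under the limit.

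Interferon-stimulated genes are induced by interferon signalling through transcription factors that bind the interferon-stimulated response element, and encode antiviral effectors and nucleic acid sensors. All 34 genes of the list were tested, and all 34 were higher in the knock-out than in the floxed cells at each of the 3 times. The early minus late difference was below 0 in 30 of the 34. At the unadjusted limit, 9 were lower and 0 higher, against 1.65% and 1.15% of all genes, and with the offsets 12 were lower and 0 higher. The median difference was -0.79, and -0.82 with the offsets. The count and the median depended on the knock-out 48 h library. Without it, and without the culture time term as in every fit that left out a library, 0 genes of the list were lower and 1, Ifit2, was higher, the median was -0.03 and 18 of 34 were below 0. The count of lower genes was 20 without the knock-out 72 h library, 2 without the floxed 48 h library, 0 without the floxed 72 h library, 0 without that term alone and 0 with the 24 h pair. The median knock-out effect was 1.10 at 6 h, 2.40 at 48 h and 1.38 at 72 h, and the effect at 6 h was below both later effects in 25 of the 34 genes, as it was in 4722 of all 13121.

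Promoter sequences are shown for the 3 genes past the limit with a match to the core of that element, and for Ifit1, which had matches and did not pass. The letters searched were GAAANNGAAA on both strands, in the RefSeq window of 250 bases before to 50 after each start (GRCm38.p6, a later build than the mm9 of the counts). Matches were found in 14 of 29 promoters of the list (48.3%, 24 of the 34 genes had a promoter entry), and in 3.44% of all 32851 promoters. Each line gives the 200 bases before the start, 5′ to 3′ on the strand of the gene, with matches in capitals. A match is a description of letters and not a mapped site.
Oas3, chr5:120777660-120777859, minus strand: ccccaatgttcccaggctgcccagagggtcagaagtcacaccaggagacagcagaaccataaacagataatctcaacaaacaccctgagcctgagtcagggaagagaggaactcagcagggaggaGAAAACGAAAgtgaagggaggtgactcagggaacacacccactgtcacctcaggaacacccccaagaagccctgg
Rsad2, chr12:26456453-26456652, minus strand: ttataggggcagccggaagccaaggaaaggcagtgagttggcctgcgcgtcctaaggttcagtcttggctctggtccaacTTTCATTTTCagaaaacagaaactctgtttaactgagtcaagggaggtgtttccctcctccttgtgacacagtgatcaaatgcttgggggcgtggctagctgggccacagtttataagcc
Bst2, chr8:71537473-71537672, minus strand: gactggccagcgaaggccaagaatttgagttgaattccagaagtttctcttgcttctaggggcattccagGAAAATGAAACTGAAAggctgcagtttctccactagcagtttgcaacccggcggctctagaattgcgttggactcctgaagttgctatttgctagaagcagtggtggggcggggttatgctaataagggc
Ifit1, chr19:34640689-34640888, plus strand: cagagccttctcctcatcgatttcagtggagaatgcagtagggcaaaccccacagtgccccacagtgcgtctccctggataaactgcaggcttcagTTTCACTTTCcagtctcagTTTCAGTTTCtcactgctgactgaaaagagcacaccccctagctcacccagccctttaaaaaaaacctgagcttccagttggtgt

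The match in Oas3 lay 75 to 66 bases before the start, that in Rsad2 120 to 111 bases and that in Bst2, a run of overlapping matches, 130 to 115 bases. Of the 7 genes past the limit with a promoter entry, 3 had a match. Ifit1, an RNA-binding antiviral protein, had matches as close to its start and a difference of -0.79 ± 0.38.

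Oas3, an oligoadenylate synthetase that activates RNase L, carried the largest difference of the list. Its level in the floxed cells at 6, 48 and 72 h was 27.2, 6.70 and 2.31 CPM. In the knock-out cells it was 52.7, 138 and 28.5 CPM. The floxed level was highest at 6 h and the knock-out level at 48 h. The effects of 0.95, 4.36 and 3.59 gave a difference of -3.10 ± 0.34. Oas2, its neighbour of the same family, was at 73.8 and 227 CPM at 6 h, at 50.1 and 452 CPM at 48 h and at 24.9 and 191 CPM at 72 h, a difference of -1.43 ± 0.23. Ifi44, an interferon-induced cytoplasmic protein, was at 106 and 131 CPM at 6 h, at 39.2 and 262 CPM at 48 h and at 24.0 and 92.6 CPM at 72 h, a difference of -2.05 ± 0.33.

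The other 6 genes past the limit were Cmpk2, Irf7, Rsad2, Oasl2, Bst2 and Zbp1. Cmpk2, an interferon-induced nucleotide kinase of mitochondria, had effects of 2.63, 4.37 and 3.44 and a difference of -1.43 ± 0.37, which turned to 0.17 without the knock-out 48 h library. Without that library Rsad2 also turned, to 0.58, and the others were weaker: Oas3 was at -1.71, Ifi44 at -1.25, Oas2 at -0.72, Bst2 at -0.68, Zbp1 at -0.60, Oasl2 at -0.33 and Irf7 at -0.17. Irf7, a transcription factor that amplifies interferon induction, had 0.71, 2.40 and 1.59, and Zbp1, a sensor of nucleic acids, had 1.59, 3.76 and 2.31. Rsad2 encodes viperin, with effects of 2.02, 4.28 and 2.75, and Bst2 encodes tetherin, with 1.00, 2.63 and 1.77. Oasl2 had effects of 1.14, 2.77 and 1.90. Their differences ran from -1.20 for Bst2 to -1.74 for Rsad2.

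The floxed cells differed more between 6 h and later in this list than the knock-out cells. The summed level of the 34 genes was 3760, 1964 and 1429 CPM at the 3 times in the floxed cells. In the knock-out cells it was 7844, 8829 and 3525 CPM. In 33 of 34 genes the floxed level was higher at 6 h than later, with a median of 1.29 on the log2 scale. The knock-out level was also higher at 6 h in 28 of 34, with a median of 0.57, and the change was larger in the floxed line in 28 of 34. MHC class I genes, which are also interferon responsive, had 0 of 11 past the limit in either direction. Their median difference was -0.30, and all 11 values were below 0. Without the knock-out 48 h library the median was 0.42 and 2 of 11 values were below 0. With the 24 h pair among the later times it was -0.10, with 8 of 11 below 0.

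**Figure D5:**
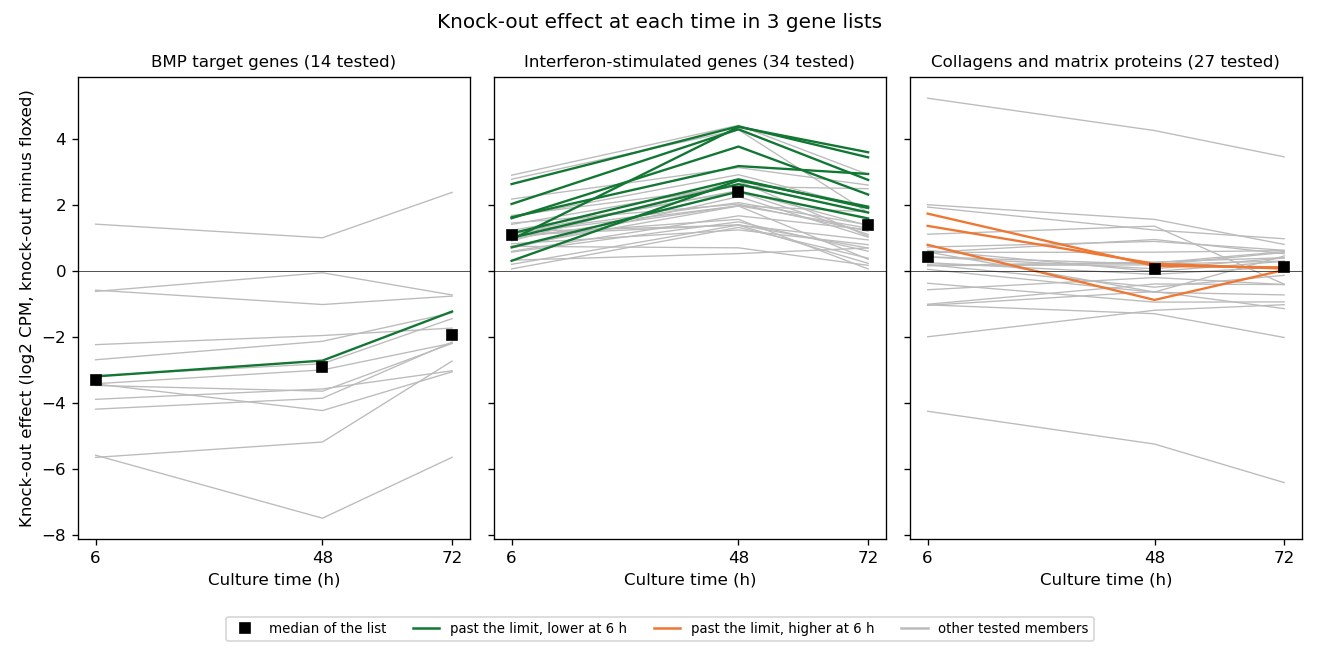
Knock-out effect in log2 CPM at 6, 48 and 72 h for every tested member of 3 gene lists (1 line per gene, 1 library per genotype and time), with the median of each list as black squares and coloured lines for members past the unadjusted limit. The BMP target median runs from -3.30 at 6 h to -1.94 at 72 h, the interferon median is 1.10 at 6 h and 2.40 at 48 h, and the 3 coloured lines of the matrix list are the Col6a genes.

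Of the 15 BMP target genes, 14 were tested, and Dlx5 did not pass the filter. At 6, 48 and 72 h, 13 of the 14 had a lower level in the knock-out cells, and Bambi a higher one. The median knock-out effect ran from -3.30 at 6 h over -2.90 at 48 h to -1.94 at 72 h. The median early minus late difference was -0.58 (-0.62 with the offsets), and 11 of 14 were below 0. At the unadjusted limit, 1 was lower and 0 higher, against 1.65% and 1.15% of all genes, and with the offsets 4 were lower (Id1, Id3, Smad6 and Smad7) and 0 higher, against 171 and 120 of all 13121. Without the knock-out 72 h library the median difference was -0.15 and 0 genes were lower, and without the knock-out 48 h library it was -1.05 and 6 were lower. The effect at 6 h was below both later effects in 8 genes, above both in 2 and between them in 4.

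Id3, an inhibitor of basic helix-loop-helix factors and a direct target of BMP Smads, was the 1 gene past the limit. It was at 811 CPM in the floxed and 88.5 CPM in the knock-out cells at 6 h, at 624 and 95.0 CPM at 48 h and at 622 and 265 CPM at 72 h. The knock-out level was below the floxed level at each time, and it was highest at 72 h. The effects of -3.19, -2.72 and -1.23 gave a difference of -1.23 ± 0.52. Without the knock-out 72 h library the difference of Id3 was -0.46, and its call was also lost with DESeq2, without TMM, with upper quartile factors, with the 24 h pair, without the culture time term and without either later floxed library. Id1 had effects of -3.17, -2.81 and -1.44, and Id2 had -4.18, -3.85 and -2.15. Their differences of -1.06 ± 0.48 and -1.21 ± 0.58 did not pass, and without the knock-out 72 h library they were -0.15 and -0.14. Id4, at 8.87 CPM in the floxed cells at 6 h and 0.768 CPM in the knock-out cells, had a difference of 0.12 ± 0.61.

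The inhibitory Smads, which are induced by BMP signalling and act back on its receptors, had smaller differences. Smad6 was at 154 and 14.4 CPM at 6 h, at 133 and 16.6 CPM at 48 h and at 114 and 25.0 CPM at 72 h, a difference of -0.83 ± 0.34. Smad7 was at 96.8 and 14.9 CPM, 87.8 and 20.0 CPM, and 103 and 42.7 CPM, a difference of -1.0 ± 0.35 that lay just under the size limit and was -0.42 without the knock-out 72 h library. Smad9, a receptor-activated Smad, had -0.60 ± 0.29. Atoh8 had -0.57 ± 0.51, and Grem1, a secreted BMP antagonist, had -0.39 ± 0.24. Msx1 and Msx2, homeobox factors of the dental mesenchyme, had 0.31 ± 0.40 and -0.24 ± 0.52, and Bambi, a pseudoreceptor that was higher in the knock-out cells at all times, had -0.27 ± 0.60. Without the knock-out 72 h library the difference of Smad6 was -0.51 and that of Smad9 -0.17, while those of Atoh8 and Bambi turned to 0.15 and 0.22. Hey1 and Nog were close to absent in the knock-out cells, with 3 to 13 and 1 to 20 counts per library, and their differences are given here as counts only.

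Among the other BMP pathway genes, 2 of 20 tested were lower at the unadjusted limit and 0 higher. This and the counts of the following lists stand against 1.65% lower and 1.15% higher of all genes. Fst, the activin and BMP antagonist follistatin, had effects of -2.95 at 6 h, -1.97 at 48 h and -1.58 at 72 h, a difference of -1.20 ± 0.32. Bmpr2, the type II BMP receptor, was at 37.4 and 8.68 CPM at 6 h, at 51.9 and 45.6 CPM at 48 h and at 53.6 and 19.7 CPM at 72 h. Its difference was -1.31 ± 0.48, and its effect at 72 h was closer to that at 6 h than to that at 48 h. Bmpr2 fell short of the limit without the knock-out 48 h library, at -0.69, and Fst without the knock-out 72 h library, at -0.79. In the TGF-beta and activin list, 1 of 18 was lower and 1 higher. Skil, a feedback repressor of Smads, had effects of -2.42, -1.46 and -1.28, a difference of -1.05 ± 0.23. Inhbb, an activin subunit, had 0.32, -1.44 and -0.26, a difference of 1.17 ± 0.50, and of 0.78 without the knock-out 48 h library. With the offsets, neither Skil nor Inhbb passed, and Fst did but Bmpr2 did not.

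In the Wnt list, 2 of 19 genes were higher at the unadjusted limit and 0 lower, against 1.15% and 1.65% of all genes, and the counts were equal with the offsets. Sfrp2, a secreted Wnt modulator, was at 8.46 CPM in the floxed and 4.67 CPM in the knock-out cells at 6 h, at 59.5 and 7.23 CPM at 48 h and at 32.4 and 7.14 CPM at 72 h. Its floxed level at 6 h was far below the later floxed levels, and its difference was 1.76 ± 0.41. Wnt4, a Wnt ligand, was at 36.6 and 9.11 CPM, 40.9 and 4.14 CPM, and 28.7 and 3.57 CPM, a difference of 1.15 ± 0.30 that turned to -0.19 with the 24 h pair among the later times. Notch pathway genes had 0 of 12 past the limit, and 1 with the offsets, the receptor gene Notch3, whose difference was 0.97 without them.

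Among targets of YAP and TEAD factors, 1 of 14 was lower and 0 higher. Ctgf, a matricellular protein, was at 119 and 28.0 CPM at 6 h, at 165 and 81.6 CPM at 48 h and at 336 and 416 CPM at 72 h. Its effects of -2.08, -1.02 and 0.31 gave a difference of -1.73 ± 0.48, with a sizeable gap between the later times. Without the knock-out 72 h library it was -0.45 and lost its call. The median of the list was -0.28, and 12 of 14 were below 0. Immediate early genes had 2 of 24 higher and 0 lower. Egr1, a zinc finger factor induced by serum, had effects of 0.62, -0.42 and -0.58, a difference of 1.12 ± 0.22, and Egr2 had 1.19 ± 0.42. When a later library was left out, the difference ran from 0.97 to 1.29 for Egr1 and from 0.92 to 1.43 for Egr2. Among feedback genes of FGF and ERK signalling, 1 of 18 was lower, the phosphatase gene Dusp4 at -1.03 ± 0.37, which was -0.52 without the floxed 72 h and -1.57 without the floxed 48 h library.

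Odontoblast and mineralization genes had 2 of 10 past the limit, both higher, against 1.15% of all genes, and only Alpl with the offsets. Alpl, tissue-nonspecific alkaline phosphatase of mineralizing cells, was at 12.6 CPM in the floxed and 0.634 CPM in the knock-out cells at 6 h. At 48 h it was at 50.2 and 0.554 CPM, and at 72 h at 62.2 and 1.39 CPM. The knock-out level stayed low at each time and the floxed level was lowest at 6 h. The effects of -4.18, -6.34 and -5.42 gave a difference of 1.61 ± 0.54. That difference was 1.03 without the knock-out 48 h and 2.37 without the knock-out 72 h library. Bglap, which encodes osteocalcin, also passed, with 6 to 49 counts per library. It lost its call without the floxed 48 h library, and also without either later knock-out library. No gene of this list passed without the culture time term or with the 24 h pair among the later times. Among dental mesenchyme transcription factors, 1 of 16 was higher and 0 lower. Osr2, which takes part in patterning the tooth row, was at 7.02 and 29.7 CPM at 6 h, at 9.82 and 23.6 CPM at 48 h and at 7.78 and 8.49 CPM at 72 h, a difference of 1.36 ± 0.47, which was 0.68 without the knock-out 72 h library, and no gene of this list passed with the offsets.

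In the circadian clock list, 2 of 16 genes were higher and 0 lower, against 1.15% and 1.65% of all genes. Nr1d1, a repressor of the clock loop, was at 33.2 and 39.6 CPM at 6 h, at 62.0 and 35.3 CPM at 48 h and at 58.6 and 29.7 CPM at 72 h, a difference of 1.15 ± 0.25. Dbp, a clock output factor, had effects of 1.17, 0.06 and -0.93 and a difference of 1.59 ± 0.46, which was 1.05 without the knock-out 72 h library. With the offsets, Nr1d1 had a difference of 0.98 and no longer passed. The clock time of harvest is not given in the sources used here. Single genes also passed in 3 further lists: Actg2, smooth muscle actin, at 1.25 ± 0.49 in the contractile list of 12, Plat in the protease list of 15, and Gsta4, a glutathione transferase, at 1.18 ± 0.41 among 13 antioxidant genes. With the offsets, Actg2 and Gsta4 no longer passed. Actg2 turned to -0.66 without the floxed 72 h library, and Gsta4 to -0.88 without the floxed 48 h library.

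No gene passed the unadjusted limit in either direction in the lists of cell division (20 tested), DNA replication (20), replication-dependent histones (17), ATF4 response (20), ER chaperones (12), hypoxia and glycolysis (18), p53 targets (17), heat shock (10), chemokines and inflammation (19) and ribosome biogenesis (14). The median difference was -0.26 for cell division genes (-0.14 with the offsets) and 0.20 for DNA replication genes (0.07 with the offsets). It was 0.11 for heat shock genes (-0.13 with the offsets) and -0.64 for histone genes (-0.98 with the offsets, where 2 of 17 were lower at the unadjusted limit). The cell division median was 0.12 without the floxed 48 h or the knock-out 72 h library, and -0.68 without the floxed 72 h library. The histone median was 0.15 without the knock-out 72 h and -1.30 without the knock-out 48 h library. The heat shock median was -0.03 without the floxed 72 h library. That of DNA replication stayed between 0.07 and 0.25 when a later library was left out. Oxidative phosphorylation and ribosomal protein genes, whose transcripts are short, had 0 of 78 and 0 of 74 past the limit. Their median differences of 0.28 and 0.37 became 0.04 and 0.11 with the offsets for length and GC content. Without the knock-out 48 h library they were 0.08 and 0.03, and without the knock-out 72 h library 0.56 and 0.84.

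Among markers of other cell types, 1 gene passed. Trp63, an epithelial factor, had 0 counts in the floxed and 29 in the knock-out library at 6 h, 4 and 17 at 48 h and 4 and 11 at 72 h. Tubb3, a tubulin also known from neurons, was at 19.6 and 55.9 CPM at 6 h, at 27.9 and 41.9 CPM at 48 h and at 42.3 and 57.8 CPM at 72 h, a difference of 0.99 ± 0.25.

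The lncRNA tables gave the same comparison for 1341 of 3840 lncRNA symbols. With the library sizes of the gene tables, 33 lncRNAs passed the adjusted limit (2.46%), 3 higher and 30 lower, and 99 the unadjusted limit (7.38%). In that edgeR fit the prior degrees of freedom were infinite, which means that 1 spread was used for all lncRNAs. With genes and lncRNAs in one fit, with the library sizes of the lncRNA tables or without the culture time term, 0 lncRNAs passed the adjusted limit, and 78, 82 and 35 passed the unadjusted limit. The 2 with the smallest p were Gm15851 and Gm17675. Gm15851 (chromosome 1, 135803108 to 135811399, plus strand, mm9) was at 2.22 CPM in the floxed and 12.5 CPM in the knock-out cells at 6 h, at 16.5 and 35.8 CPM at 48 h and at 4.88 and 2.42 CPM at 72 h, with effects of 2.45, 1.11 and -0.99. Gm17675 (chromosome 2, 120358640 to 120365582, plus strand) was at 39.8 and 9.14 CPM, 60.5 and 60.9 CPM, and 97.6 and 58.1 CPM, with effects of -2.12, 0.01 and -0.75.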

How the data were processed

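Total RNA was sequenced on an Illumina HiSeq after TruSeq preparation. Per the labels and the study's methods, the authors aligned the reads to mm9 with TopHat2 2.0.8b and deposited HTSeq read counts per gene symbol and per lncRNA symbol, as whole numbers without normalization. The annotation and the strand setting of the counting are not given in the sources used here, so overlapping and antisense genes cannot be told apart. The labels give 6 h for the first culture time, and the series' design text gives a slightly later one. The labels also give single-end reads, and the study's methods paired reads.

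The 5 summary rows of each table were dropped. In R 4.3.3, edgeR 4.0.16 was used with TMM factors and its filter on low counts (at least 10 counts, 15 in total). The design held culture time at 3 levels, genotype, and the interaction of genotype with 6 h, which left 1 residual degree of freedom, with 6.94 prior degrees of freedom. The SE was the size of the difference divided by the square root of F. CPM values used TMM factors, and the effects at each time a prior count of 2. The study tested genotype with RPKM values, so this test is not from its methods, and only the unadjusted limit is. Deviations from the genotype mean were correlated between the floxed and knock-out libraries of a culture time (0.713 at 6 h, 0.536 at 48 h and 0.840 at 72 h), so culture time stayed in the model as the block.

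Symbols were matched to GENCODE M1 on mm9 for coordinates and lengths (94.8% of 22609 had 1 gene). Promoters were read from RefSeq windows on GRCm38.p6. Genes named in the text were Bmp2, the BMP target list, the leading genes by smallest p, 12 in each direction, with symbols of unnamed genes left out, and up to 4 genes of smallest p in each other list. The interferon genes Irf7, Rsad2, Oasl2, Bst2, Zbp1 and Ifit1 were chosen after their values were seen. Certain items are not reported here. The groups, gene lists and tests were chosen with earlier results of these data known. The tests were checked on simulated data. Alternatives were no culture time term, the 24 h pair added, DESeq2 1.42.0, limma 3.58.1 on log2 CPM (offset of 0.5) and log2 RPKM (offset of 0.1), other scaling and filters, leaving out each later library, and, after seeing the data, offsets for length and GC content and a joint fit of genes and lncRNAs. Intervals of counting error are not given for single values, and SEs cover the spread between these libraries only.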

Additional observations from a re-analysis of the deposited data

Results flagged for a closer look

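In 7 of the leading genes the knock-out effect had one sign at 6 h and the other at both 48 and 72 h. It was positive at 6 h and negative later in Plat (a difference of 1.191), Scara5 (2.244), Spon2 (2.272) and Rgs2 (2.745), and also in Islr (3.076), where the effect at 6 h was only 0.09. It was negative at 6 h and positive later in C4b (-1.593) and Kng2 (-2.704), which have close relatives in the genome. The effects were under 1 in size at 6 h in Plat, Scara5, Islr, C4b and Kng2. Each difference passed the unadjusted limit in edgeR and none passed the adjusted one, where the smallest adjusted p of these genes was 0.193, for Scara5.

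Among lncRNAs, 33 passed the adjusted limit in the fit with the library sizes of the gene tables, and 0 in each of the 3 alternative fits. Of the 33, 12 had under 100 counts on average and 4 were also in the gene table.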

How the results depend on the processing

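The count of 0 genes at the adjusted limit stayed at 0 in 12 of 15 alternatives, and became 26 with DESeq2, 30 with no filter on low counts and 2 (Msln and Oas3) with at least 10 counts in every library. At the unadjusted limit, 367 genes became 238 with DESeq2, 181 with the 24 h pair among the later times, and 70 without the culture time block (69 of them among the 367). Leaving out a later library also needed the fit without that block and gave 24 genes without the floxed 48 h library, 26 without the floxed 72 h, 182 without the knock-out 48 h and 206 without the knock-out 72 h library. The share of higher calls was 41.1% in the main comparison, 12.5% without the floxed 48 h, 50% without the floxed 72 h, 69.2% without the knock-out 48 h and 19.4% without the knock-out 72 h library, and 31.4% without the block, 28.7% with the 24 h pair and 31.5% with DESeq2. Other scaling, filters and limma gave 321 to 432 genes, and the offsets 291.

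Of the 24 leading genes, 24 kept their call with DESeq2, without TMM, with upper quartile factors and with the offsets, 12 with the 24 h pair and 8 without the block. Without the floxed 48 h, knock-out 48 h, floxed 72 h and knock-out 72 h library, 10, 16, 8 and 17 of the 24 kept it. Among named genes past the unadjusted limit, the sign turned, without a call, in Wnt4 with the 24 h pair (-0.19). Without the knock-out 48 h library it turned in Cmpk2 (0.17) and Rsad2 (0.58). It also turned in Actg2 without the floxed 72 h library (-0.66) and in Gsta4 without the floxed 48 h library (-0.88). The lncRNA count went from 33 to 0 with the sizes of the lncRNA tables, 0 without the block and 0 with genes and lncRNAs in one fit. The causes were not tested. With 1 library per genotype at 6 h, leaving out a 6 h library leaves no comparison, and a deviation of that library cannot be told apart from an effect of culture time. Differences of genes with few counts, such as Ptgds and Bglap, were limited by depth.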
